A study of Mus musculus with 8 samples.

Results

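The interferon-inducible GTPases described here are 10 genes of the mouse, chosen by name from the count table of 55367 genes. The guanylate-binding proteins (GBPs) among them are Gbp2, Gbp3, Gbp5, Gbp7 and Gbp9, and the immunity-related GTPases (IRGs) are Igtp, Irgm1, Irgm2, Iigp1 and Ifi47. Their RNA was followed in a line of fibroblastic reticular cells (FRCs), the main stromal cells of the lymph node, in 8 libraries with 2 for each of 4 conditions. The line came from lymph nodes of C57BL/6 mice carrying the p53 ER/ER allele, so every condition shares that background, and all values describe 1 cultured line and not FRCs in a node. The cells were kept for 4 days in 1 of 4 media with 2% serum: RPMI taken off B16.F10 melanoma cultures (tumor cell-conditioned medium, TCM), RPMI taken off FRC cultures (control conditioned medium, CCM), fresh RPMI containing 15 mM lactic acid (LA), or fresh RPMI to which only water was added (vehicle). The design pairs TCM with its conditioned-medium control CCM, and LA with vehicle, to ask what tumor medium and lactic acid each change in FRCs.

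GBPs and IRGs are large GTPases that many cell types make after interferon. The receptors for interferon activate JAK kinases, and the transcription factors these switch on bind GAS elements and interferon-stimulated response elements (ISREs) in target promoters. The proteins are known for acting on the membranes around intracellular pathogens: effector IRGs and GBPs coat and break open such vacuoles, while the regulatory IRGs Irgm1, Irgm2 and Igtp sit on the cell's own membranes and hold the effectors off them. The genes are commonly used as readouts of interferon signaling.

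On GRCm38, Gbp5 (chr3:142493978-142522344), Gbp7 (chr3:142530342-142550149), Gbp3 (chr3:142560026-142573209) and Gbp2 (chr3:142620602-142638008) lie side by side on the plus strand, and Gbp9 (chr5:105077630-105139539) lies on the minus strand of another chromosome. Igtp (chr11:58199556-58207591) and Irgm2 (chr11:58199618-58222782) overlap on the plus strand of chromosome 11, which also holds Irgm1 (chr11:48861968-48871683, minus strand) and Ifi47 (chr11:49076587-49096974, plus strand). Iigp1 lies on another chromosome, and its position is not shown. In the GENCODE annotation Igtp and Irgm2 share 162 exonic bases, which are 8.01% of the Igtp exons and 4.39% of those of Irgm2. Gbp7 shares 637 exonic bases with the processed pseudogene Gm43802. Of the 75-base windows of the transcripts, 11.3% of Gbp7, 7.80% of Igtp, 4.78% of Irgm2 and 3.61% of Gbp9 also occur in another gene, against none of Irgm1 or Iigp1. Ifi47 shares 217 of its 2473 exonic bases with other genes, 111 of them with Olfr56 on the same strand (4.49%) and 106 with the pseudogene Gm12188 on the opposite strand. Counts of these 5 genes are uncertain to that extent.

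RefSeq promoters, which reach from 250 bases before a start site to 50 after it, were examined for 8 of the 10 genes. Iigp1 was left out of this step beforehand, and Gbp9 had no promoter in the set used. The ISRE letters GAAANNGAAA occurred on either strand in 7 of the 9 promoters of these genes, each of a different gene, against 3.44% of 32851 promoters of the same length. The GAS letters TTCNNNGAA, which read the same on both strands, occurred in 4 of the 9 promoters (of Gbp5, Gbp7, Igtp and Irgm2), against 8.30% of promoters. A second promoter of Gbp3, not shown, held neither set of letters. The promoters of Igtp and Irgm2 aligned over 270 positions at 90.4% identity. The stretches below show where the letters fall in the genes followed most closely here. They are from GRCm38.p6, run 5′ to 3′ on the gene's strand, and end at the RefSeq start site or at the first annotated exon. Capitals mark ISRE and GAS matches. For Gbp2 and Irgm1, whose matches reach an annotated exon, 30 bases around the matches are shown.
Igtp, chr11:58199436-58199555: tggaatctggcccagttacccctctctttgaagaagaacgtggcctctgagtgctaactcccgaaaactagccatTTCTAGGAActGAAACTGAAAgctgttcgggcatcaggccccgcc
Irgm2, chr11:58214857-58214976: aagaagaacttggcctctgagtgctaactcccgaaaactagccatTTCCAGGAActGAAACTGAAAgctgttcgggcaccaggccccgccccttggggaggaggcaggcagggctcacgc
Irgm1, chr11:48871428-48871457, minus strand: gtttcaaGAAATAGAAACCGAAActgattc
Gbp3, chr3:142559924-142560025: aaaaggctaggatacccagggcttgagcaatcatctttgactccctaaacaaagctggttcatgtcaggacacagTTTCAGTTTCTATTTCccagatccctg
Gbp7, chr3:142530216-142530335: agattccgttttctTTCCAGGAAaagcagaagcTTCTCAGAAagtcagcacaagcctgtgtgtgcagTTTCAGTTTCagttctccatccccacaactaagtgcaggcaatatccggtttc
Gbp2, chr3:142620594-142620623: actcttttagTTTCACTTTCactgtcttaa
Ifi47, chr11:49076467-49076586: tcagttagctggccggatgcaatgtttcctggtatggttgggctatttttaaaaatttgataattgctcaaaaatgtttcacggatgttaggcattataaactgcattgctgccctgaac
In Igtp and Irgm2 a GAS and an ISRE match stood next to each other, in Gbp3 and Irgm1 a pair of ISRE matches overlapped, and the Ifi47 promoter held neither set of letters. A match is a description of the sequence only, and no binding was measured.

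Library totals ranged from 8232889 to 14107964 counts, and levels are given as CPM, which are counts scaled by TMM-adjusted library totals. A floor of 3 counts corresponds to between 0.211 and 0.354 CPM, depending on the library. Of the FRC markers, Pdpn, Vcam1, Pdgfra, Pdgfrb, Col1a1 and Col1a2 passed the count filter, whereas Thy1 had 1 to 16 counts. The levels of the 2 collagen genes lay far apart, with vehicle means of 15400 CPM for Col1a1 and 6.5 for Col1a2, and the cause was not tested. Of 7 leukocyte markers 6, among them Ptprc (CD45), were at 0 in all libraries, and the summed leukocyte level ran from 0 to 0.654 CPM, the remainder being Nkg7. Summed endothelial and epithelial markers stayed within 0.758 to 1.24 CPM and 0 to 0.118 CPM. The 2 CCM libraries differed in the GTPases, and with 2 libraries the data cannot say which of them is unusual. CCM replicate 1 was higher than CCM replicate 2 for 8 of the 8 GTPases that could be tested, with a median log2 difference of 1.12, while the median size of that difference over 12137 tested genes was 0.11. It exceeded 1 on the log2 scale for 5 of the 8 GTPases and for 0.931% of all tested genes. In the other groups the median size of the replicate difference for the same 8 genes was 0.17 (vehicle), 0.22 (LA) and 0.26 (TCM). For the GTPases, results that use CCM are therefore given with and without each CCM library where leaving one out changed the call or the direction. For LA against CCM the changes of direction are given as ranges in the closing section.

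All 10 genes were lowest on average in vehicle and highest in TCM. Testing required 10 or more counts in 3 or more libraries, which 8 of the 10 reached, while Gbp5 and Gbp9 did not. For 7 of the 8 tested genes the means stood in the order vehicle, CCM, LA, TCM from low to high, and for Gbp2 LA came before CCM. The levels of each gene in the 8 libraries follow by role, and the plot of levels by library shows them together. In bulk RNA, more cells that express a gene cannot be told apart from more RNA per cell.

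**Figure D1:**
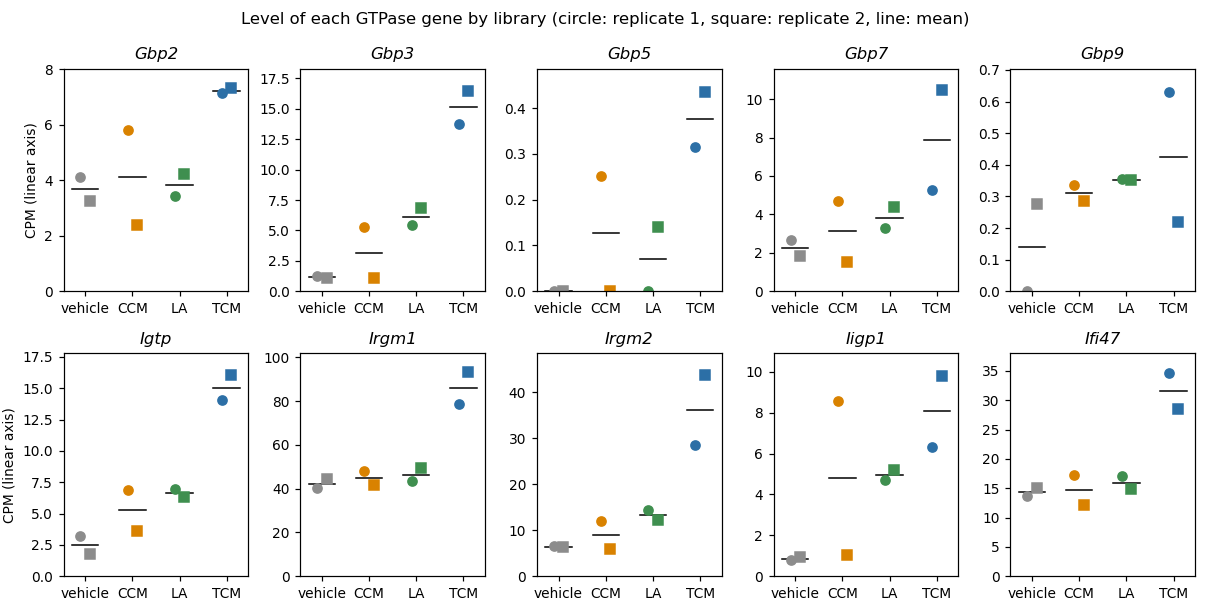
Level of the 10 GTPase genes in the 8 libraries (y axis, CPM on a linear scale from 0, scaled for each gene; x axis, condition). Circles are replicate 1, squares replicate 2 and lines the mean of 2 libraries; TCM has the highest mean in every panel, and the circle of CCM stands above the square in every panel.

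Of the regulatory IRGs, Irgm1 had the highest mean of the 10 genes in every condition. In vehicle the means of Irgm2 (6.42 CPM) and Igtp (2.50) lay below that of the effector Ifi47 (14.3). Irgm1, a regulator that also acts in autophagy and mitochondrial upkeep, measured 40.3 and 44.3 CPM in the vehicle libraries, 48.2 and 41.9 in CCM, 43.4 and 49.5 in LA, and 78.5 and 93.2 in TCM. Both TCM libraries lay above the other 6, which stayed within a narrow band. Irgm2, another regulator that guards host membranes, measured 6.47 and 6.38 CPM in vehicle, 12.0 and 5.82 in CCM, 14.3 and 12.2 in LA, and 28.5 and 43.7 in TCM. Its LA libraries lay above both vehicle libraries and its TCM libraries above all others, with CCM replicate 1 close to LA and CCM replicate 2 below vehicle. Igtp (also called Irgm3), the regulator that resides on the endoplasmic reticulum, measured 3.24 and 1.76 CPM in vehicle, 6.91 and 3.63 in CCM, 6.97 and 6.34 in LA, and 14.1 and 16.02 in TCM. Here CCM and LA overlapped, and both lay between vehicle and TCM. Because Igtp and Irgm2 share exons, their counts were also summed: the sum was 8.92 ± 1.11 CPM in vehicle, 14.2 ± 6.66 in CCM, 19.9 ± 1.94 in LA and 51.2 ± 12.1 in TCM (SD, n = 2 each). The order of the conditions in this sum does not depend on how counted reads were split between the pair. The sum cannot settle the order for either gene alone, and it does not recover reads of the shared bases that were left uncounted.

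Among the effector IRGs, Ifi47 (Irgd) measured 13.6 and 15.0 CPM in vehicle, 17.2 and 12.2 in CCM, 17.1 and 14.8 in LA, and 34.6 and 28.6 in TCM. Its vehicle, CCM and LA libraries overlapped and both TCM libraries lay apart from them. Iigp1 (Irga6), the best studied vacuole-coating IRG, measured 0.781 and 0.924 CPM in vehicle, 8.59 and 1.05 in CCM, 4.73 and 5.21 in LA, and 6.32 and 9.81 in TCM. The CCM replicates of Iigp1 lay 8.18-fold apart, and 0% of the tested genes had a larger difference between those libraries; its TCM libraries enclosed CCM replicate 1.

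The GBPs were low in this line. Gbp3 measured 1.23 and 1.11 CPM in vehicle, 5.31 and 1.05 in CCM, 5.44 and 6.83 in LA, and 13.8 and 16.5 in TCM. The LA libraries stood well above vehicle and the TCM libraries above LA, while the CCM replicates differed 5.05-fold. Gbp2, a prenylated GBP that coats parasite vacuoles, measured 4.13 and 3.23 CPM in vehicle, 5.81 and 2.39 in CCM, 3.43 and 4.23 in LA, and 7.16 and 7.30 in TCM. Only its TCM libraries lay outside the range of the rest. Gbp7 measured 2.68 and 1.85 CPM in vehicle, 4.72 and 1.53 in CCM, 3.31 and 4.37 in LA, and 5.26 and 10.5 in TCM, where replicate 1 had 0.503 times the level of replicate 2. Gbp5, known for promoting inflammasome assembly, had no count in either vehicle library, 3 and 0 counts in CCM, 0 and 2 in LA, and 3 and 4 in TCM. Gbp9 had 0 and 3 counts in vehicle, 4 and 3 in CCM, 3 and 5 in LA, and 6 and 2 in TCM. For Gbp5 and Gbp9 no difference between conditions was detectable at this depth, and no fold is given.

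**Figure D2:**
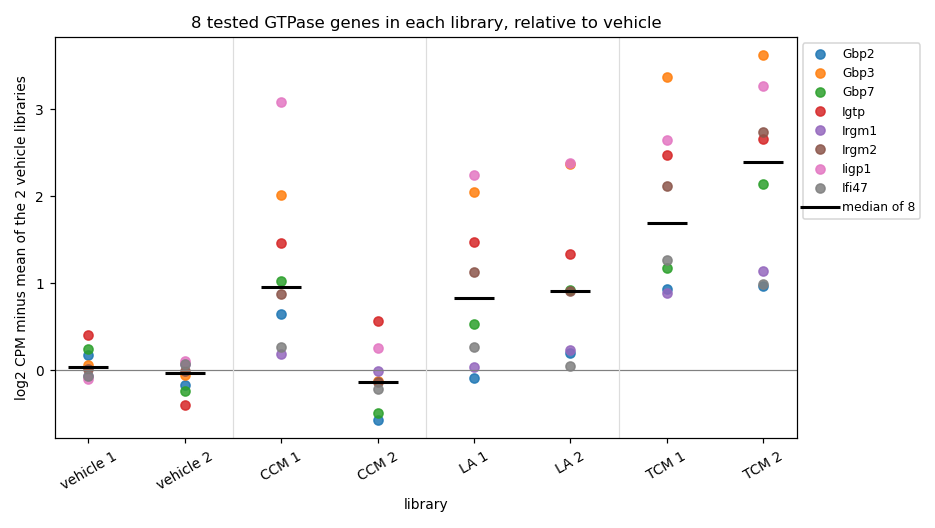
Log2 CPM of the 8 tested GTPase genes in each library minus the mean of the vehicle libraries (y axis, log2 units; x axis, library; 1 point per gene, black bars the median of the 8). The medians are 0.95 and -0.13 in the CCM libraries, 0.83 and 0.91 in LA, and 1.69 and 2.40 in TCM.

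Relative to the vehicle mean, the median of the 8 tested genes was 0.83 and 0.91 log2 units in the LA libraries and 1.69 and 2.40 in the TCM libraries. The CCM libraries split, at 0.95 for replicate 1 and -0.13 for replicate 2, while the median over all tested genes stayed at 0.0048 and 0.0076. For these genes CCM replicate 1 thus had a level like that of the LA libraries, and CCM replicate 2 one like vehicle.

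With TCM against CCM, 5 of the 8 tested GTPases rose and 0 fell, with Gbp3 and Irgm2 rising most. A gene is counted as changed at an adjusted p under 0.05 and a log2 fold change (log2 FC) beyond 0.39 in edgeR's quasi-likelihood test, adjusted over all 12137 tested genes. In this comparison 8.83% of all tested genes rose and 10.2% fell. Gbp3 was 4.61-fold higher in TCM (log2 FC 2.20, SE 0.41, adjusted p = 0.00321), Irgm2 4.01-fold (2.00, SE 0.28, adjusted p = 0.000487) and Igtp 2.82-fold (1.50, SE 0.27, adjusted p = 0.00277). Ifi47 was 2.14-fold higher (1.10, SE 0.17, adjusted p = 0.00108) and Irgm1 1.90-fold (0.93, SE 0.13, adjusted p = 0.000416). Gbp7 (log2 FC 1.30, SE 0.43, adjusted p = 0.0557), Gbp2 (0.79, SE 0.32, adjusted p = 0.107) and Iigp1 (0.70, SE 0.55, adjusted p = 0.408) did not pass. The median log2 FC was 1.20 for the 8 genes and 0.00032 over all tested genes. Both TCM libraries lay above both CCM libraries for 7 of the 8, the exception being Iigp1, as they did for 27.8% of all tested genes. A single gene in 2 libraries against 2 cannot go below p = 0.333 in an exact 2-sided permutation test, so every p-value rests on the spread shared across genes in the fit. The study chose a set of virus response genes on these same samples for their change with LA. For any GTPase in that set, the direction here and with LA is not independent evidence.

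The size of these changes depended on the CCM library. Without CCM replicate 1 the log2 FC was 3.83 for Gbp3, 2.92 for Iigp1, 2.35 for Gbp7 and 1.59 for Gbp2. Without CCM replicate 2 it was 1.51 for Gbp3, -0.09 for Iigp1, 0.73 for Gbp7 and 0.31 for Gbp2. In both cases the remaining CCM library is assumed to vary like the other groups. On that assumption Iigp1, Gbp7 and Gbp2 passed without CCM replicate 1, so their not passing with both CCM libraries depends on that library. Irgm1 and Ifi47 moved least, from 0.83 to 1.03 and from 0.88 to 1.37 between these fits. Leaving out TCM replicate 2 took Gbp3 to an adjusted p of 0.051, and leaving out TCM replicate 1 brought Gbp7 to 0.028. The melanoma marker Tyrp1 had 6 and 3 counts in the TCM libraries and 0 in the other 6, and Dct 1 and 1 against 0. Summed melanoma markers ranged from 1.23 to 1.66 CPM in vehicle, 0.955 to 1.77 in CCM, 1.55 to 1.77 in LA and 1.64 to 1.89 in TCM, with Pmel making up most of the sum in every group and Tyr at 0 throughout. Their part in the result was not tested.

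**Figure D3:**
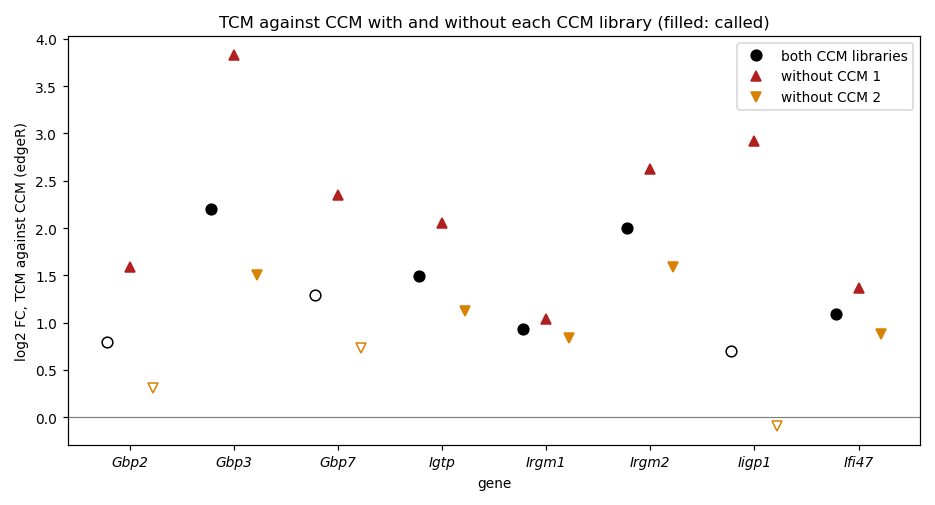
Log2 FC of TCM against CCM for the 8 tested GTPase genes (y axis, edgeR, log2 units; x axis, gene) with both CCM libraries (circles), without CCM replicate 1 (upward triangles) and without CCM replicate 2 (downward triangles). Filled symbols passed the test, and Iigp1 spans from -0.09 to 2.92.

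With LA against vehicle, Gbp3 was the single GTPase of the 8 tested that rose, and 0 fell, where 1.31% of all tested genes rose and 1.24% fell. Gbp3 was 5.31-fold higher in LA (log2 FC 2.41, SE 0.56, adjusted p = 0.0473), close to the threshold. Igtp stood 1.43 log2 units higher in LA (SE 0.34, adjusted p = 0.056), Iigp1 2.53 (SE 0.81, adjusted p = 0.156), Irgm2 1.03 (SE 0.32, adjusted p = 0.136) and Gbp7 0.81 (SE 0.51, adjusted p = 0.546), and none of these passed. For these 5 genes the LA and vehicle libraries were apart, with LA above, as for 23.7% of all tested genes. Ifi47 (log2 FC 0.15, SE 0.18), Irgm1 (0.14, SE 0.13) and Gbp2 (0.09, SE 0.36) overlapped between LA and vehicle. The median log2 FC was 0.92 for the 8 genes and -0.00035 over all tested genes.

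The Gbp3 call was lost in the fits without either vehicle library, either LA library or either TCM library, at adjusted p from 0.123 to 0.297, and DESeq2 gave it 0.0727. In contrast, DESeq2 passed Igtp (adjusted p = 0.00725) and Irgm2 (adjusted p = 0.0237). Igtp also passed without either CCM library or either TCM library, and Iigp1 without either CCM library (adjusted p = 0.00789 and 0.00732). All libraries of a fit share 1 estimate of the spread. Across the alternatives in which each gene was tested the log2 FC stayed between 2.21 and 2.54 for Gbp3, 1.03 and 1.91 for Igtp, 0.92 and 1.15 for Irgm2, and 2.42 and 2.66 for Iigp1.

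**Figure D4:**
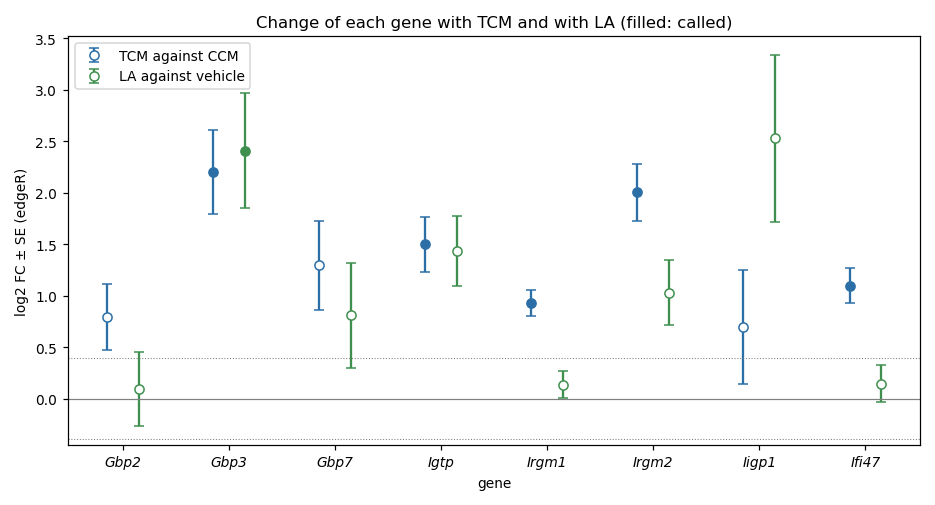
Log2 FC with its SE (y axis, edgeR, log2 units) of the 8 tested GTPase genes (x axis) for TCM against CCM (blue) and LA against vehicle (green); filled points passed the test and dotted lines stand at a log2 FC of 0.39 either way. Irgm1 and Ifi47 stand at 0.93 and 1.10 with TCM and at 0.14 and 0.15 with LA.

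Whether TCM and LA differed in effect was tested as the TCM effect (against CCM) minus the LA effect (against vehicle). Of the 8 GTPases 2 had a larger TCM effect and 0 a smaller one, against 4.45% and 6.00% of all tested genes. These were Irgm1, with a difference of 0.79 log2 units (SE 0.18, adjusted p = 0.0165), and Ifi47, with 0.95 (SE 0.25, adjusted p = 0.0339). Neither gene had passed with LA. The call for Irgm1 was lost without vehicle replicate 2 (adjusted p = 0.0822), CCM replicate 2 (0.088) or LA replicate 1 (0.0694). That for Ifi47 was lost without any 1 of the vehicle libraries, the LA libraries or CCM replicate 2 (adjusted p from 0.0524 to 0.136) and without TMM scaling (0.0613). For Gbp3 (-0.21, SE 0.72, adjusted p = 0.904), Igtp (0.06, or -0.08 without TMM scaling, SE 0.47, adjusted p = 0.957) and Iigp1 (-1.83, SE 1.02, adjusted p = 0.305) no difference was shown, and the SEs leave room for differences in either direction. The value for Iigp1 turned on the CCM library used, at 0.40 without CCM replicate 1 and -2.62 without CCM replicate 2, where it passed. The direction also turned on it for Gbp3 (1.43 without CCM replicate 1, -0.90 without CCM replicate 2) and Igtp (0.62 and -0.31). Gbp7, at 0.49 with both (adjusted p = 0.721), stood at 1.55 and -0.07. Irgm2, at 0.97 (adjusted p = 0.19), passed at 1.60 (adjusted p = 0.0351) without CCM replicate 1.

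The remaining comparisons set the other pairs of conditions against each other. With TCM against LA, 5 of the 8 rose and 0 fell (8.34% and 7.77% of all tested genes), and both TCM libraries lay above both LA libraries for 8 of 8, against 26.8%. The 5 were Irgm2 (log2 FC 1.46, adjusted p = 0.00329), Gbp3 (1.28, adjusted p = 0.0365), Igtp (1.19, adjusted p = 0.0106), Ifi47 (1.00, adjusted p = 0.00235) and Irgm1 (0.88, adjusted p = 0.00075). Gbp3 lost this call without any 1 of the vehicle, LA or TCM libraries (adjusted p from 0.0564 to 0.188) and in DESeq2 (0.261), and Igtp lost it without LA replicate 2 (0.0912). With TCM against vehicle, 7 of the 8 rose and 0 fell (8.58% and 8.90%), and the libraries of the 2 conditions were apart for 8 of 8, against 27.4%. Gbp3 was 12.9-fold higher (log2 FC 3.69, adjusted p = 0.00061), Iigp1 9.26-fold (3.21, adjusted p = 0.0141), Igtp 6.14-fold (2.62, adjusted p = 0.000261), Irgm2 5.61-fold (2.49, adjusted p = 0.000238), Gbp7 3.50-fold (1.81, adjusted p = 0.0209), Ifi47 2.21-fold (1.14, adjusted p = 0.00115) and Irgm1 2.03-fold (1.02, adjusted p = 0.000319). Gbp2, at 0.98, did not pass (adjusted p = 0.0653). It passed in 5 of 20 alternatives, among them the edgeR fit of only the libraries compared (adjusted p = 0.0216). With TCM against LA, where Gbp2 did not pass either, it also passed in 5 of 20. The calls for Iigp1 and Gbp7 did not survive leaving out a vehicle library or TCM replicate 2, and that for Iigp1 also fell without TCM replicate 1 (adjusted p from 0.0684 to 0.227 in these fits). These comparisons share libraries with the first ones and are not independent of them.

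Between the controls and between CCM and LA, edgeR found no changed GTPase. With CCM against vehicle 0 of the 8 rose and 0 fell (0.898% and 0.404% of all tested genes), and DESeq2 also called 0. An unadjusted p under 0.05 was found for 3 (Gbp3, Igtp and Iigp1), beside 1563 of all 12137 tested genes. The log2 FCs of these 3 GTPases were 1.48 (SE 0.62), 1.12 (SE 0.35) and 2.51 (SE 0.81). Without CCM replicate 1 the log2 FC was negative for 6 of the 8, the exceptions being Igtp (0.57) and Iigp1 (0.29), and without CCM replicate 2 Iigp1 passed at 3.31 (adjusted p = 0.0162). With LA against CCM 0 rose and 0 fell (0.297% and 0.330%), and DESeq2 called 0. An unadjusted p under 0.05 was found there for 0 of the 8, beside 1293 of all 12137 tested genes. Gbp3 passed there without CCM replicate 1, at 2.55 (adjusted p = 0.0447). In the order of the means, therefore, the neighbors vehicle and CCM, and CCM and LA, were not shown to differ for any of the 8, and LA and TCM differed for 5.

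Exon length was taken as every annotated exonic base of a gene. The transcripts expressed may be shorter, so ranks between genes depend on that choice. Per kilobase of exon, the mean levels in vehicle were 7.28 CPM per kb for Irgm1, 5.78 for Ifi47, 1.74 for Irgm2, 1.46 for Gbp2, 1.23 for Igtp, 0.403 for Gbp7, 0.358 for Gbp3 and 0.146 for Iigp1. In TCM they were 14.8 for Irgm1, 12.8 for Ifi47, 9.79 for Irgm2, 7.45 for Igtp, 4.63 for Gbp3, 2.87 for Gbp2, 1.40 for Gbp7 and 1.39 for Iigp1. On this scale the vehicle means of Gbp3 (0.358 ± 0.0257) and Gbp7 (0.403 ± 0.105) lay within their spread and that of Gbp2 (1.46 ± 0.251) above both, whereas in TCM Gbp3 (4.63 ± 0.579) lay above Gbp2 (2.87 ± 0.0412) and Gbp7 (1.40 ± 0.655; SD, n = 2 each). Summed over the family, the 5 IRGs measured 66.4 ± 2.83 CPM in vehicle and 177 ± 20.7 in TCM, and the 5 GBPs 7.25 ± 1.11 and 31.0 ± 5.47 (SD, n = 2 each). Of the IRG sum in TCM, Irgm1 made up 85.9 CPM.

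The 8 tested genes varied together over the 8 libraries. Pearson's r of log2 CPM between members ran from 0.676 to 0.955 over 28 pairs, with a median of 0.849. These libraries share 4 conditions, so the values describe a common pattern and carry no test. The 10 other tested genes whose pattern was most like the mean standardised profile of the members were Ifit1 (r = 0.994), Phf11d (0.988), Vars2 (0.984), Rnft2 (0.984), Ifit3b (0.983), Ifit3 (0.977), Oasl2 (0.976), Usp18 (0.975), Adam17 (0.975) and Ifi211 (0.973). Ifit1 measured 6.47 and 5.45 CPM in vehicle, 26.7 and 6.11 in CCM, 21.03 and 18.9 in LA, and 81.3 and 94.1 in TCM. As the genes were picked for their likeness over these libraries, the split of its CCM replicates is part of what picked it. Ifit1, Ifit3, Ifit3b, Oasl2, Usp18 and Ifi211 are interferon-stimulated genes, whereas Vars2, a mitochondrial tRNA synthetase, and Adam17, a membrane sheddase, are not known chiefly as such.

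Other inducible GTPases were followed as a list of 22 genes, of which 21 were in the table and 8 could be tested. Not all of them are GBPs or IRGs, since Mx1 and Mx2 were among the 8. With TCM against CCM 5 of the 8 rose and 0 fell (8.83% and 10.2% of all tested genes), with a median log2 FC of 1.40. Tgtp2, an effector IRG, rose by a log2 FC of 1.65 (adjusted p = 0.000725), and Mx2, an antiviral dynamin-like GTPase, by 1.78 (adjusted p = 0.00578). Gm4951 (2.08, adjusted p = 0.0137), Gm12185 (2.02, adjusted p = 0.0131) and 9930111J21Rik2 (0.85, adjusted p = 0.0227) also rose. With LA against vehicle 0 of the 8 passed in edgeR, beside 1.31% of all tested genes that rose and 1.24% that fell. The log2 FC was positive for 7 of the 8 and for 6054 of all 12137 tested genes. Of the 8, 4 had an unadjusted p under 0.05 with LA, beside 1731 of all 12137 tested genes. Tgtp2 and Mx2 passed without either CCM library, with log2 FCs of 1.38 to 2.02 and 1.28 to 2.64. Gm4951 ran from 4.05 without CCM replicate 1 to 1.34 without replicate 2, where it did not pass (adjusted p = 0.0648), Gm12185 did not pass without CCM replicate 1 (adjusted p = 0.124), and 9930111J21Rik2 passed in neither fit (0.0566 and 0.15). In this list 6 of 8 were higher in CCM replicate 1 than in CCM replicate 2, with a median log2 difference of 0.90, beside 0.0062 over all tested genes. GTPases related by fold but not known as interferon-induced (atlastins, dynamins and Irgq) gave 1 of 7 with TCM against CCM, beside 8.83% of all tested genes that rose. This was Dnm1 at 0.42 (adjusted p = 0.0451, with the vehicle libraries at 21.4 and 19.0 CPM and TCM at 20.9 and 25.3), which did not pass without either CCM library (0.221 and 0.162). Their median log2 FC was 0.14 and their median difference between the CCM replicates -0.0044.

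Upstream of the GTPases, Ifng and Ifnb1 had 0 counts in all 8 libraries, so no interferon transcript of these 2 genes was detected, and other interferons were not examined. Of 7 tested receptor chains and kinases, Ifngr1, a chain of the interferon gamma receptor, fell by 0.41 on the log2 scale with TCM against CCM (adjusted p = 0.014) and Jak2 fell by 0.40 (adjusted p = 0.0379), while 0 rose, beside 10.2% of all tested genes that fell and 8.83% that rose. Neither passed without CCM replicate 1 (adjusted p = 0.1 and 0.224) or without CCM replicate 2 (0.0873 and 0.107). Among the transcription factors of the pathway, those that rose with TCM against CCM included Irf9 (log2 FC 1.45, adjusted p = 0.000102), Stat2 (1.71, adjusted p = 0.000137) and Irf7 (2.14, adjusted p = 0.000524). All of these passed without either CCM library, and Irf7 ran from 2.84 without replicate 1 to 1.70 without replicate 2. With LA against vehicle Irf9 (0.76, adjusted p = 0.0332) and Irf7 (1.65, adjusted p = 0.0466) rose. Irf9 measured 21.2 and 17.6 CPM in vehicle, 24.3 and 20.8 in CCM, 29.2 and 35.8 in LA, and 55.4 and 68.5 in TCM, with means in the order seen for 7 of the GTPases. Irf1, which drives many GBP genes, measured 25.0 and 24.0 CPM in vehicle, 28.6 and 30.5 in CCM, 23.6 and 19.3 in LA, and 32.6 and 28.9 in TCM, and passed with TCM against LA alone.

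Of 6 tested inhibitors of the pathway, Usp18, which blocks the type I receptor, rose by 2.16 (adjusted p = 0.00425) and Socs3, a cytokine signaling inhibitor, by 1.05 (adjusted p = 0.000642) with TCM against CCM, where 8.83% of all tested genes rose. Both passed without either CCM library, and Usp18 ran from 3.88 without replicate 1 to 1.45 without replicate 2. Socs1, the main inhibitor of interferon gamma signaling, fell by 1.52 with TCM against vehicle (adjusted p = 0.00289), from 7.14 and 4.99 CPM to 2.00 and 2.18. Its CCM libraries measured 3.29 and 3.53 CPM, and it did not pass with TCM against CCM. Among 15 genes that target GTPases to vacuoles or act in autophagy, Lgals3, which binds broken vacuoles, was the 1 that rose with TCM against CCM (1.01, adjusted p = 0.0373), a share below the 8.83% of all tested genes, with a list median of 0.15. It did not pass without CCM replicate 1 (adjusted p = 0.25) or without CCM replicate 2 (0.0757). Its vehicle libraries measured 4.24 and 2.77 CPM, against 3.999 and 3.60 in TCM. Casp4 (caspase-11), a sensor of bacterial lipopolysaccharide, rose by 1.47 (adjusted p = 0.00328) as the 1 of 3 tested inflammasome genes to do so, and passed without either CCM library (adjusted p = 0.0295 and 0.0315). For none of the inhibitors, targeting genes or inflammasome genes did LA against vehicle pass in edgeR. An unadjusted p under 0.05 was found for 2, 5 and 0 of them, beside 1731 of all 12137 tested genes. With LA the log2 FC was positive for 3 of the 15 targeting genes (median -0.11), 3 of the 6 inhibitors (median 0.013) and 1 of the 3 inflammasome genes (median -0.033). It was positive for 6054 of all 12137 tested genes.

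**Figure D5:**
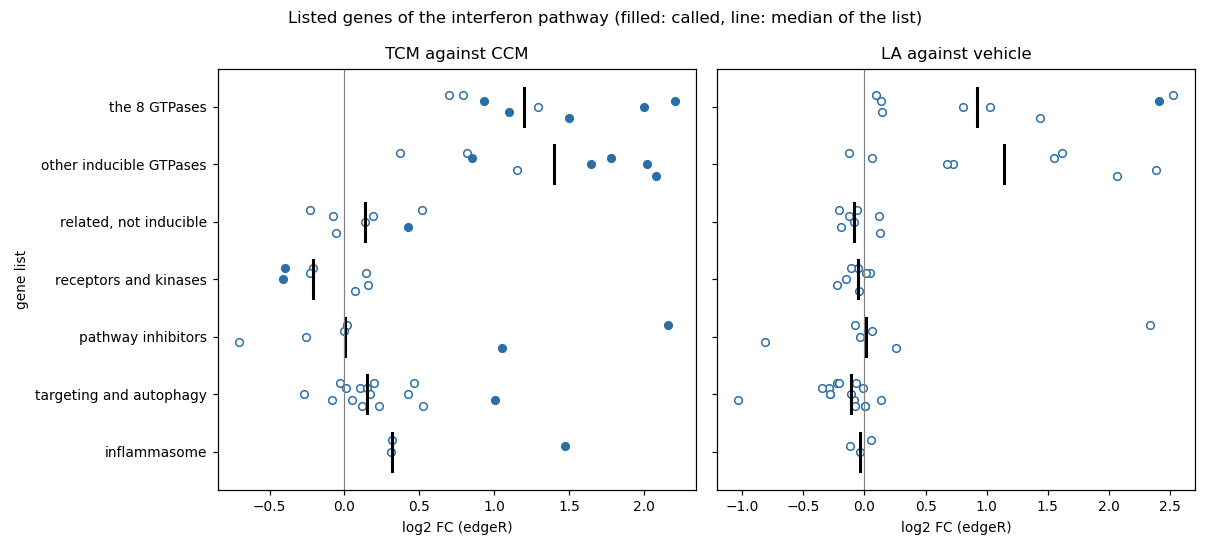
Log2 FC (x axis, edgeR, log2 units) of the tested genes of each list (y axis) for TCM against CCM (left) and LA against vehicle (right), 1 point per gene, filled where the gene passed, with the list median as a bar. With TCM the medians are 1.20 for the 8 GTPases and 1.40 for other inducible GTPases, and the other lists drawn lie between -0.21 and 0.32. The transcription factors of the pathway, of which some rose with TCM and others did not pass, are not drawn.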

How the data were processed

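Poly(A) RNA of 8 libraries was analysed, 2 per condition; the study states 2 biological replicates, and p-values measure the spread between these libraries. The authors prepared directional libraries, aligned reads to GRCm38 with STAR 2.7.0a and counted them per gene with featureCounts (Subread 2.0.1), and they deposited raw counts per gene without normalization; the strand setting is not given in the sources used here. A second deposited table holds the same counts for 12137 genes. The authors' own tests used DESeq2 1.32.0 and were not used. No column was left unused (0).

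Genes reaching 10 counts in 3 or more libraries entered edgeR 4.0.16 (R 4.3.3; TMM factors 0.938 to 1.04, robust quasi-likelihood fit, a mean per condition, all 8 libraries), with Benjamini-Hochberg adjustment. Log2 CPM used a prior count of 2. The SE is the log2 FC divided by the square root of F. Alternatives were DESeq2 1.42.0, other scalings, filters, thresholds, a replicate block and leaving out each library. The fitting code was tested on simulated data. Floors cover counting error only, since no molecular identifiers were used. Positions and exons come from GENCODE vM21 (GRCm38) and promoters from RefSeq (GRCm38.p6).

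The members and gene lists were chosen with earlier results of these data known. Named are all 10 members; from each list every gene that passed where these were at most 5, otherwise the 4 with the smallest adjusted p in TCM against CCM; and the 10 genes most like the members in pattern. One gene of the transcription factor list is not reported here. Irf1, Socs1, Ifng and Ifnb1 and the marker genes were named after their values were seen.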

Additional observations from a re-analysis of the deposited data

Results flagged for a closer look

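For 2 of the GTPases the effect of TCM against CCM differed from that of LA against vehicle by a test of the difference itself in edgeR. Irgm1 differed by 0.792 log2 units (adjusted p = 0.0165), with both TCM libraries above both CCM libraries and LA overlapping vehicle. Ifi47 differed by 0.952 log2 units (adjusted p = 0.0339), with the same arrangement of libraries. No condition has enough libraries for a check for single outlying samples within a group, and the split between the CCM replicates is given as values only.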

How the results depend on the processing

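The TCM rise of Igtp, Irgm2 and Ifi47 over CCM passed in 20 of 20 alternatives, and those of Gbp3 and Irgm1 in 19 of 20. Leaving out 1 library at a time changed which of the 8 genes passed in each comparison. With TCM against CCM the log2 FC then ran from 1.51 to 3.83 for Gbp3 and from 0.31 to 1.59 for Gbp2. The lone library left in a group is assumed to vary like the other groups. Each count here is followed by the share of all tested genes called higher in the same fit. The result for LA against vehicle, 1 gene as reported, was 2 with DESeq2 (1.40%) and 3 without a filter on low counts (1.50%). It was 0 with 10 counts required in every library (1.34%), 4 with only the libraries compared (1.96%) and 0 with the test against the fold threshold (0.132%). For the TCM effect minus the LA effect, 2 genes as reported, it was 1 without TMM scaling (2.69%), 0 at a log2 FC beyond 1 (1.57%) and 0 with the test against the threshold (1.73%). Without the filter 2 genes passed with CCM against vehicle (1.43%) and 1 with LA against CCM (1.01%). Beyond a log2 FC of 1 there were 3 with TCM against LA (1.86%). The cause of these shifts was not tested. What the depth limits is Gbp5 and Gbp9, with 0 to 6 counts a library, and Iigp1 in vehicle, with 7 and 10.

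The replicate numbers share only a number: deviations of same-numbered libraries correlated at 0.353 (vehicle and LA), 0.112 (vehicle and TCM), 0.106 (LA and TCM), -0.0406 (vehicle and CCM), -0.0813 (CCM and LA) and -0.242 (CCM and TCM). With the number as a replicate block 2 genes rose with LA against vehicle (Gbp3 and Igtp, beside 1.53% of all tested genes), and 5 with TCM against CCM (9.01%). An alternative with the CCM numbers crossed in the replicate block was added after seeing the data. In it 4 rose with LA against vehicle (2.55%), 6 with TCM against CCM (10.4%), 7 with TCM against LA (9.66%) and 8 with TCM against vehicle (10.2%).

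The log2 FCs that changed sign were those near 0 or resting on CCM, and none of them had passed as reported. Without TMM scaling the TCM effect minus the LA effect of Igtp was -0.079 and LA against CCM of Iigp1 was -0.0095. With 1 library left out, CCM against vehicle ran from -0.61 to 0.67 for Gbp2, -0.15 to 2.18 for Gbp3, -0.55 to 1.07 for Gbp7, -0.015 to 0.19 for Irgm1, -0.14 to 0.90 for Irgm2 and -0.23 to 0.26 for Ifi47. LA against CCM ran from -0.58 to 0.70 for Gbp2, -0.27 to 1.35 for Gbp7, -0.062 to 0.86 for Igtp, -0.056 to 0.15 for Irgm1, -0.78 to 2.24 for Iigp1 and -0.12 to 0.38 for Ifi47. The TCM effect minus the LA effect ran from -0.90 to 1.43 for Gbp3, -0.092 to 1.55 for Gbp7, -0.41 to 0.62 for Igtp and -2.62 to 0.40 for Iigp1. TCM against CCM ran from -0.094 to 2.92 for Iigp1, and LA against vehicle from -0.092 to 0.27 for Gbp2.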
